A study of Mus musculus with 16 samples.

Results

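The H3K27ac peaks described here lie within 50 kb of a transcription start site of 9 genes that control the macrophage lineage, namely Spi1, Csf1r, Cebpa, Cebpb, Runx1, Maf, Mef2c, Mitf and Zeb2. They were chosen by position alone: a peak was a member when any of its bases lay within 50 kb of any start site of these protein-coding genes in mm10. Peaks of the 4 deposited lists that overlapped by at least 1 bp were merged into regions, and 154 of 55218 regions met the rule. The rule took 132 of the 43533 peaks in the Control list, 107 of 40708 with IFNγ, 144 of 44090 with PJ34 and 115 of 42960 with both agents (IFNγ+PJ34, written below as with both). The member region nearest to the limit, 49.5 kb from Zeb2, was found in the PJ34 list with a fold enrichment of 3.57, and the first region outside it, 51.2 kb from Cebpb, was in all 4 lists with fold enrichments of 4.24 in Control, 1.89 with IFNγ, 9.49 with PJ34 and 4.48 with both.

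H3K27ac is the acetylation of histone H3 at lysine 27, a mark of promoters and enhancers in use. ChIP-seq for it was made in bone marrow-derived macrophages (BMDMs) grown from the marrow of C57Bl6 mice aged 8 to 12 weeks in medium with serum and LCCM. All groups share this background, and they differ in treatment: untreated cells (Control), cells given the cytokine interferon gamma (IFNγ) at 100 ng/mL for 1 h, cells given PJ34, an inhibitor of poly(ADP-ribose) polymerases, at 20 µM, and cells given PJ34 for 1 h before IFNγ (IFNγ+PJ34). Each condition had 2 ChIP samples and 2 input samples, but the 2 replicates were combined into 1 peak list, so that differences between conditions carry no replicate error here and no test was made. The labels do not say whether replicates came from separate mice, and the time of PJ34 alone is not given in the sources used here.

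Macrophages take their identity from a small set of transcription factors and from the growth factor receptor CSF1R. PU.1, the ETS factor encoded by Spi1, opens enhancers together with C/EBPα and C/EBPβ, and RUNX1 acts upstream of Spi1 when blood cells form. CSF1R receives the signals of CSF1 and IL-34 that keep macrophages alive, and its gene is a target of PU.1, RUNX1 and C/EBP factors. MAF, MEF2C, MITF and ZEB2 act in macrophages and also in other cell types, such as lens, muscle, melanocytes and neural crest.

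The sequences below are shown because PU.1 and RUNX motifs are the letters by which these factors are known to bind, and because some of the stretches were marked by H3K27ac under all conditions and others were not. They were read from the RefSeq mm10 assembly on the strand of the named gene, and capitals mark every match on either strand to GAGGAAGT (PU.1), TTGCNNAA (C/EBP), TGTGGT (RUNX), CTA and TAG separated by 4 free bases (MEF2), CACGTG (an E-box used by MITF), CACCTG (an E-box used by ZEB2) or TGANTCA (AP-1), except in the Runx1 stretch, where only RUNX matches are marked. The first is the 120 bases that end at the Spi1 start site (chr2:91095977-91096096, plus strand), overlapped by the promoter peak of each list, where the final 8 bases match the PU.1 motif. The second, 15.1 kb upstream of Spi1 between genes (chr2:91080922-91081041, plus strand), lies in the widest upstream region of the gene and holds 1 PU.1, 1 RUNX and 1 ZEB match. The third lies 2.04 kb downstream of the distal Runx1 start site, in the first intron (chr16:92824006-92824205, minus strand), and is dense in RUNX matches. The next pair flank Cebpa, in intergenic sequence around the peak summits 20.1 kb upstream (chr7:35099099-35099298, plus strand), a region found in the Control list alone, and 8.21 kb downstream (chr7:35127411-35127610, plus strand), a region missing from the IFNγ+PJ34 list alone. The last lies 38.0 kb upstream of Cebpa (chr7:35081206-35081325, plus strand), in a region present in all 4 lists.
Spi1 promoter: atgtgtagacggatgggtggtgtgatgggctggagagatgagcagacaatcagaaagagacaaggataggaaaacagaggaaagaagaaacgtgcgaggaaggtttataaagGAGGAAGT
Spi1 upstream: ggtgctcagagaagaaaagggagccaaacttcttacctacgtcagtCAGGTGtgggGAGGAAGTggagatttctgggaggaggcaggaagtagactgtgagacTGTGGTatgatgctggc
Runx1 intron: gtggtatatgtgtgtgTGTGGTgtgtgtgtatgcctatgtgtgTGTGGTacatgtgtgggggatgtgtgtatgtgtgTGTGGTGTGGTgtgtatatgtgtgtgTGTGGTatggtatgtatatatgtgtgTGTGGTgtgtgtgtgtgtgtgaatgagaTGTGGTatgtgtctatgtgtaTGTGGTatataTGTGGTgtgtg
Cebpa upstream, Control alone: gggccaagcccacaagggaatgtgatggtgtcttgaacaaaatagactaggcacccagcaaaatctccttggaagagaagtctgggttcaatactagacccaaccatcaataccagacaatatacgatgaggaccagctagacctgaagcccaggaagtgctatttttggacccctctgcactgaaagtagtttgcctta
Cebpa downstream, missing from IFNγ+PJ34: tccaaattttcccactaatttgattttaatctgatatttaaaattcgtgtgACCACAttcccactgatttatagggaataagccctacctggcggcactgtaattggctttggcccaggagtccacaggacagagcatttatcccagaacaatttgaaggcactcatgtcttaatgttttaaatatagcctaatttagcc
Cebpa upstream, all lists: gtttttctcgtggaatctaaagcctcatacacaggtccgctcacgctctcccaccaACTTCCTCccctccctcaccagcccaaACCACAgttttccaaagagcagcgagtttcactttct

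Over all 154 regions the motifs were about as dense as over all regions. The PU.1 letters occurred 31 times in 276 kb, or 0.112 per kb (95% interval for counting error, 0.0763 to 0.159), against 0.104 per kb in all regions. RUNX letters occurred 239 times, or 0.866 per kb against 0.800, and 31 of those matches lay in the region around the distal Runx1 start site, 9 of them in the repetitive 200 bases printed above. In the 200 bases around a region's summit, a PU.1 match was found in 4 of 154 member regions (2.60%) against 1.11% of all regions, and a RUNX match in 16 (10.4%) against 13.9%. For the other motifs the member and all-region shares were 6.49% and 7.03% for C/EBP, 3.90% and 2.98% for MEF2, 0.649% and 2.52% for the MITF E-box, 16.9% and 14.8% for the ZEB E-box, and 5.19% and 5.08% for AP-1. Apart from RUNX at its own locus, the ZEB E-box stood at 1.46 per kb around Cebpb and 1.26 per kb around Spi1, and at 0.520 per kb around Zeb2 itself. Its density was 0.793 per kb over the member regions and 0.738 per kb over all regions, and it was lowest around Mef2c, at 0.343 per kb. A match is a string of letters and not a bound site.

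The label of the cells was checked against marker genes. All 8 macrophage markers (Adgre1, Cd68, Itgam, Mertk, Fcgr1, Lyz2, Cd14 and Trem2) had a peak within 1 kb of a start site in all 4 lists. Among 36 markers of B cells, T cells, neutrophils, erythroid cells, dendritic cells, fibroblasts, melanocytes, muscle and neurons, 30 had no such peak in any list, 4 had one in all 4 lists (Klf1, Zbtb46, Xcr1 and Pmel), Camp had one in 3 lists and Cd5 in 1. The 4 lists themselves differed in extent: peaks covered 52.6 Mb in Control, 42.5 Mb with IFNγ, 47.9 Mb with PJ34 and 44.1 Mb with both, and the depth of the libraries is unknown from these files. Peaks were therefore compared by presence, by the share of each window that they covered, and by the percentile of their score within their own list, where 100 is the strongest peak of that list. Fold enrichments are also given, and they were not adjusted for differences between the lists.

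All 9 genes carried a promoter peak under every condition, and all 9 stood above the middle gene in the share of the surrounding window that was acetylated. A peak within 1 kb of a start site in all 4 lists was found for 9 of 9 genes, against 47.8% of 21938 protein-coding genes. In Control, peaks covered 33.0% of the Csf1r window, 30.4% for Zeb2, 28.9% for Spi1, 24.7% for Cebpb, 16.7% for Runx1, 12.8% for Mef2c, 10.7% for Mitf, 10.1% for Cebpa and 8.96% for Maf, against a median of 2.75% over all genes. Csf1r, Zeb2 and Spi1 thus ranked at the 99.5th, 99.3rd and 99.0th percentile of all genes, Cebpb at the 97.9th, Runx1 at the 93.5th and the other 4 genes between the 79.7th and the 88.5th. These percentiles spanned 67.1 to 99.4 in IFNγ, 77.8 to 99.9 in PJ34 and 73.2 to 99.1 in IFNγ+PJ34, and the lowest of the IFNγ list was that of Mef2c. High coverage was not particular to the 9 genes. In Control their median covered share was 16.7%, below the 22.9% of the 8 macrophage markers. The 27 relatives and partners described below had a median of 7.19%.

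**Figure D1:**
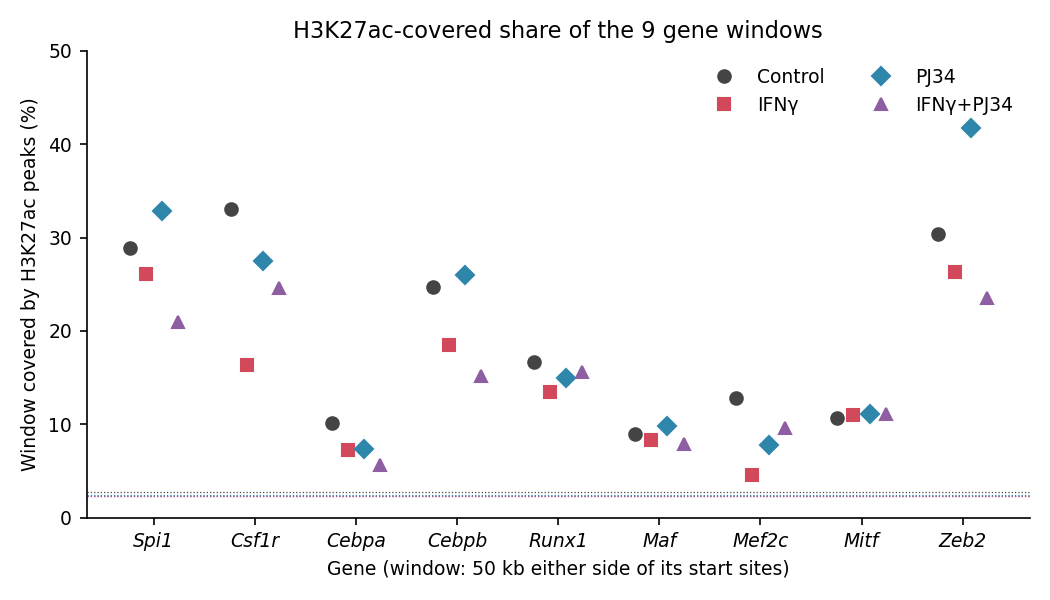
Share of each gene's window (50 kb either side of its start sites, in percent) covered by H3K27ac peaks in the 4 lists, 1 point per list made from 2 replicates; dotted lines give the median over 21938 protein-coding genes in each list. All points lie above those lines, Csf1r and Mef2c have their lowest point in IFNγ (16.4% and 4.59%), and Zeb2 has its highest in PJ34 (41.8%).

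The members included more broad domains than the genome at large, but the median member peak ranked below the middle of its list. The median width of a region was 701.5 bp for members and 709 bp for all regions. Of the 154 regions, 15 were 5 kb wide or wider (9.74%), against 2.73% of all regions, and all 15 were present in the 4 lists, as were 99.2% of such regions over the genome. The median member peak nevertheless stood at percentile 36.8 in Control, 46.7 with IFNγ, 38.2 with PJ34 and 45.6 with both, below the middle of each list (50). Of the summits, 105 lay in introns, 40 between genes, 4 in coding exons and 5 in untranslated exons, and the nearest start site was that of the member gene itself for 128 regions. Promoter regions, those within 1 kb of a start site, were present in all 4 lists in 15 of 18 cases (83.3%, against 81.6% of all promoter regions), and the distal ones in 33 of 136 (24.3%, against 26.1%).

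Presence over the 4 lists was uneven. In all, 48 regions (31.2%, 95% interval 24.0 to 39.1) were in every list, against 38.9% of all regions, and 60 were in a single list. Promoter regions, which were in every list more often than distal ones, made up 11.7% of member regions and 23.0% of all regions. Within promoter and within distal regions, the member and all-region shares given above were close. The commonest single-list pattern was PJ34 alone, with 30 regions (19.5%, 13.5 to 26.6) against 8.93% of all regions, and 12 of these 30 lay at Zeb2. Control alone held 20 regions (13.0%, against 11.8%), IFNγ+PJ34 alone 7 (4.55%, against 10.4%) and IFNγ alone 3 (1.95%, against 4.07%). Among the patterns of a pair of lists, Control and PJ34 held 13 regions (8.44%, against 4.04%), Control and IFNγ+PJ34 held 8 (5.19%, against 3.64%), IFNγ and PJ34 held 5 (3.25%, against 2.7%), PJ34 and IFNγ+PJ34 held 4 (2.60%, against 0.909%) and Control and IFNγ held 2 (1.30%, against 1.07%). No member region was in IFNγ and IFNγ+PJ34 alone (0 of 154, which allows up to 2.37%, against 2.29%). The regions found in PJ34 alone were weak, between percentile 5.78 and 46.0 of that list and with fold enrichments of 2.38 to 4.92. Among the 60 single-list regions, 1 stood above the middle of its list, the Control region 20.1 kb upstream of Cebpa. The intervals are exact Clopper-Pearson intervals that cover counting error and treat regions as independent, which neighbouring regions of 1 gene are not.

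**Figure D2:**
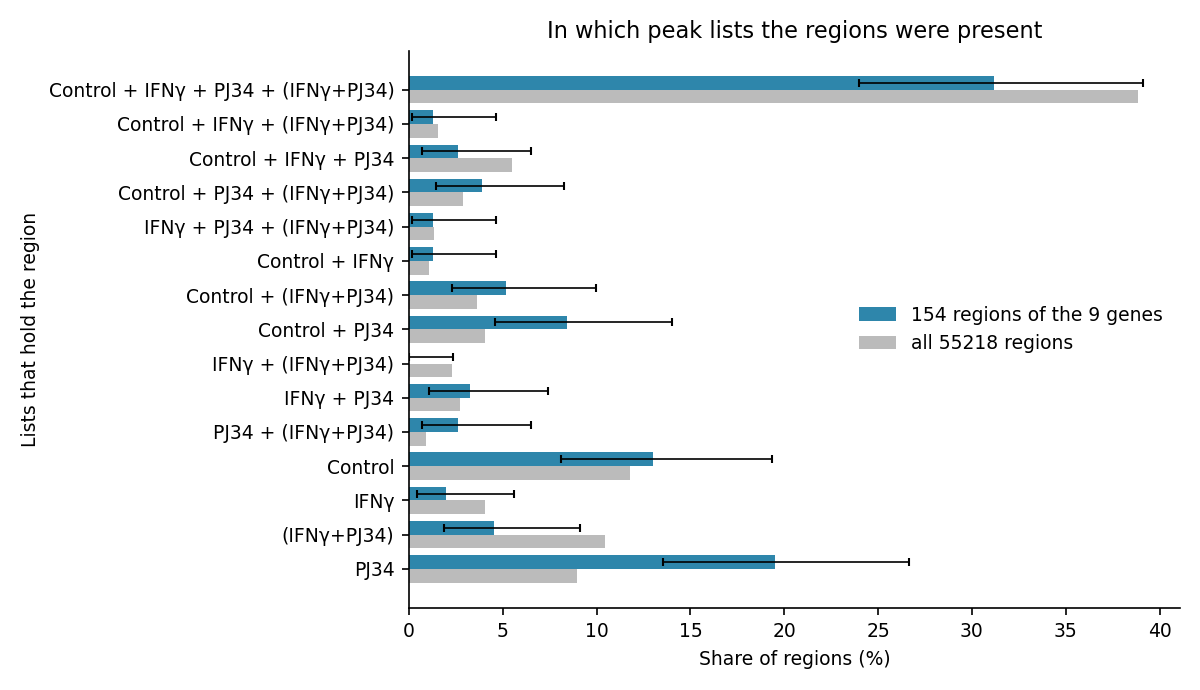
Share of regions, in percent, that were held by each combination of the 4 lists, for the 154 regions of the 9 genes (blue, with exact 95% binomial intervals) and for all 55218 regions (grey). The largest gaps are at PJ34 alone, 19.5% against 8.93%, and at all 4 lists, 31.2% against 38.9%. The shares are not split by type, and promoter regions were 11.7% of the 154 regions and 23.0% of all regions.

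Spi1 (chr2:91082390-91115756, plus strand), which encodes PU.1, had 18 regions, 5 of them in all 4 lists. Its promoter peak had a fold enrichment over background of 124 in Control, 94.8 with IFNγ, 87.5 with PJ34 and 30.8 with both, and its score stood at percentiles 100.0, 99.9, 99.8 and 97.2. The peak thus ranked among the strongest of each list, and it was lowest and narrowest in IFNγ+PJ34, at 4399 bp against 6638 bp in Control. The stretch was split in IFNγ+PJ34, with further peaks 4.54 to 5.45 kb and 5.63 to 5.94 kb downstream. In Control the single peak ran to 6.29 kb downstream, so the width of 4399 bp is not that of the whole marked stretch. Upstream, a region 11.7 kb wide (chr2:91079962-91091707), with its summit 13.5 kb from the start site, reached fold enrichments of 129, 64.4, 61.8 and 65.0 in the same order, at percentiles of 98.6 or more. This stretch includes the distance at which an enhancer bound by PU.1 itself is known from blood cells. The annotated span of Spi1 given above also begins inside it, so the region is upstream of the start site used here but overlaps the gene. Further regions 25.1 and 41.9 kb upstream were in all 4 lists, and the latter covers the start of Psmc3, a proteasome gene. The strongest Spi1 region missing from a list, 17.3 kb upstream, stood at percentiles 54.8 in Control, 46.7 in IFNγ and 65.3 in PJ34 and had no peak in IFNγ+PJ34.

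Csf1r (chr18:61100598-61132149, plus strand), the CSF1 and IL-34 receptor, had 20 regions and was among the genes that differed most between Control and IFNγ. Peaks covered 33.1 kb of its window in Control, 16.4 kb with IFNγ, 27.6 kb with PJ34 and 24.7 kb with both. Of its 24 Control peaks, 16 had no overlapping IFNγ peak, against 31.7% of all Control peaks. All 17 IFNγ peaks overlapped a Control peak, where 16.8% of all IFNγ peaks did not. The promoter peak had a fold enrichment of 98.5 and a width of 11058 bp in Control, 28.0 and 3895 bp with IFNγ, 40.2 and 4347 bp with PJ34 and 42.9 and 5297 bp with both. By score percentile this peak stood at 99.7, 93.5, 97.2 and 99.4 in the same order. The region around it, which extends into the intron that holds a well-known enhancer of the gene, was 1 of the 15 broad regions and was split into 2 peaks in Control, 6 with IFNγ, 8 with PJ34 and 4 with both. All 6 regions present in both Control and IFNγ had a lower score percentile in IFNγ, with a median difference of -14.8 points. An intronic region 14.5 kb downstream of the start site illustrates this, at percentiles 80.2 in Control, 48.7 with IFNγ, 76.3 with PJ34 and 74.3 with both. Of 13 Csf1r regions in Control and not in IFNγ, 6 were also in IFNγ+PJ34, and none of the 13 stood above percentile 53.6 in Control. Over all regions in Control and not in IFNγ, those also in IFNγ+PJ34 numbered 1598 with PJ34 and 2009 without it. Those not in IFNγ+PJ34 numbered 2231 with PJ34 and 6513 without it. The 13 were picked for their absence from IFNγ, so these counts do not show a recovery. The strongest region outside the gene, 30.4 kb upstream, lies in an intron of the neighbouring receptor gene Pdgfrb and was in all 4 lists.

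Cebpa (chr7:35119293-35121928, plus strand), which encodes C/EBPα, a factor of myeloid precursors, had 9 regions and no broad one. Its promoter peak had a fold enrichment of 33.5 in Control, 14.5 with IFNγ, 21.1 with PJ34 and 13.6 with both, at percentiles 87.7, 80.9, 82.1 and 71.7. Several of its distal regions were well ranked yet absent from other lists. The region 20.1 kb upstream (chr7:35099003-35099783) had a fold enrichment of 12.9 and percentile 69.4 in Control and no peak elsewhere, and its neighbour 20.6 kb upstream stood at percentile 75.4 in Control and 43.6 in IFNγ+PJ34, with no peak with IFNγ or PJ34 alone. Neither PU.1 nor any other of the 7 motifs occurred in the printed 200 bases of the former. The region 8.21 kb downstream (chr7:35126316-35128322) was at percentiles 67.7 in Control, 80.5 in IFNγ and 71.2 in PJ34 and was missing from IFNγ+PJ34. At 37.1 kb downstream, where a myeloid enhancer of this gene is known, a weak region had fold enrichments of 4.22 in Control, 4.42 in IFNγ and 3.79 in PJ34 and no peak in IFNγ+PJ34. The region 38.3 kb upstream, whose PU.1 and RUNX matches are printed above, was in all 4 lists at percentiles 81.0, 44.0, 62.8 and 72.1.

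Cebpb (chr2:167688915-167690418, plus strand), which encodes C/EBPβ, a factor induced in activated macrophages, had 15 regions, 6 of them in all 4 lists. Its promoter peak had a fold enrichment of 65.5 in Control, 54.1 with IFNγ, 72.6 with PJ34 and 23.6 with both, and covered length followed the same order, at 24.7, 18.5, 26.0 and 15.2 kb. The strongest distal region lay 32.0 kb upstream in an intron of Tmem189, with fold enrichments of 68.1 in Control, 17.8 with IFNγ, 39.7 with PJ34 and 42.9 with both. Its values in IFNγ+PJ34 were thus above those in IFNγ, unlike those of the promoter. All 10 IFNγ peaks and all 10 IFNγ+PJ34 peaks of the gene overlapped a peak of Control and of PJ34, respectively. Such overlap was common over all peaks, where 16.8% of IFNγ peaks had no Control peak and 25.7% of IFNγ+PJ34 peaks no PJ34 peak.

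Runx1 (chr16:92601466-92826149, minus strand), which encodes a factor needed for the first blood cells, had the most regions, 33, of which 14 were in all 4 lists. Both of its promoters were marked. At the distal promoter, the one used in blood cells of the adult, the fold enrichment was 55.7 in Control, 19.5 with IFNγ, 37.2 with PJ34 and 44.7 with both, and at the proximal promoter it was 43.7, 57.7, 62.6 and 31.8. The list with the lowest fold enrichment therefore differed between them, being IFNγ at the distal and IFNγ+PJ34 at the proximal one. By score percentile the distal one was also lowest in IFNγ, at 95.8, 91.4, 92.3 and 96.1 in the same order. The proximal one was lowest in Control by percentile, at 96.2, 98.3, 98.7 and 97.5. In the intron between them, which is known to hold an enhancer of blood stem cells, the region 24.8 kb downstream of the distal start site stood at percentiles 79.2, 41.2, 70.7 and 80.9. The strongest distal region, 42.3 kb upstream (chr16:92866548-92870360), varied little, at percentiles 92.9, 96.9, 95.6 and 98.7.

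Maf (chr8:115682942-115707794, minus strand), which encodes c-MAF, a brake on macrophage self-renewal, had 4 regions. Its broad promoter region, 7835 bp wide, had fold enrichments of 58.4 in Control, 37.1 with IFNγ, 60.6 with PJ34 and 45.4 with both. By score percentile it stood at 98.2, 93.1, 97.1 and 98.2 in the same order. The only other region in all 4 lists, 35.3 kb upstream, was higher in the single treatments, at percentiles 49.1 in Control, 77.3 with IFNγ, 71.6 with PJ34 and 53.0 with both. The remaining regions were in PJ34 alone or in IFNγ and PJ34.

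Mef2c (chr13:83504034-83667080, plus strand), a MADS-box factor of muscle, brain and myeloid cells, had its highest covered length in Control and its lowest in IFNγ, as Csf1r did. Peaks covered 21.9 kb in Control, 7.87 kb with IFNγ, 13.3 kb with PJ34 and 16.4 kb with both, so that the IFNγ value was 0.359 times that of Control. The first of its groups of start sites had no peak in any list, and the promoter peaks lay at the groups further down. Fold enrichments (Control, IFNγ, PJ34, both) were 26.1, 19.4, 19.3 and 18.2 at the second and 19.9, 11.5, 8.25 and 14.3 at the third. Percentiles were 87.5, 84.8, 84.8 and 85.1 at the second and 84.1, 72.6, 72.4 and 79.4 at the third. The fourth shared the Control peak of the third and had no IFNγ peak. Its fold enrichments were 3.85 in PJ34 and 2.53 with both. Of 18 Control peaks, 12 had no overlapping IFNγ peak, against 31.7% of all Control peaks. All 5 regions present in both lists had a lower percentile in IFNγ than in Control (median difference -9.96 points). The region 34.3 kb downstream of the last start site was the clearest case, at percentiles 78.5 in Control, 38.4 with IFNγ, 63.8 with PJ34 and 76.7 with both.

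Mitf (chr6:97807052-98021349, plus strand), a regulator of lysosomal genes and of pigment cells, varied least in covered length. Peaks covered 28.1 kb in Control, 28.9 kb with IFNγ, 29.1 kb with PJ34 and 29.1 kb with both. The first start site had a promoter peak in all lists, with fold enrichments of 46.2, 20.9, 33.2 and 23.7 and percentiles of 93.1, 84.7, 89.9 and 90.6. The second had weak peaks, at a fold enrichment of 3.29 in IFNγ and 3.55 in PJ34, and the remaining pair of groups, of which the most downstream is the melanocyte promoter, had none. Its strongest region was intronic, 22.7 kb downstream (chr6:97823410-97832377), at fold enrichments of 72.0, 61.6, 49.3 and 53.7 and percentiles between 98.4 and 99.2.

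Zeb2 (chr2:44983632-45117395, minus strand), a zinc-finger repressor that maintains the identity of tissue macrophages, had the widest of all member regions, 17.1 kb across its promoters. The peak there was 17112 bp wide in Control, 14652 bp with IFNγ, 16760 bp with PJ34 and 16419 bp with both, with fold enrichments of 119, 70.4, 93.6 and 58.3. Over the whole window the PJ34 list was the fullest: peaks covered 44.7 kb in PJ34 against 32.6 kb in Control, 28.2 kb in IFNγ and 25.2 kb in IFNγ+PJ34. Of 23 Zeb2 regions, 12 were in PJ34 alone, and they lay between 14.9 and 49.7 kb downstream in the gene's introns and summed to 7.97 kb. They were weak, at percentiles from 5.78 to 46.0. Of its shared regions, the promoter region did not rank higher in PJ34, at percentiles 99.98 in Control, 99.80 with IFNγ, 99.80 with PJ34 and 99.68 with both. The intronic region 20.3 kb downstream stood at percentiles 79.2 in Control, 85.9 with IFNγ, 92.3 with PJ34 and 72.1 with both, and 5 of 6 regions shared with Control had a higher percentile in PJ34 (median difference 13.3 points).

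**Figure D3:**
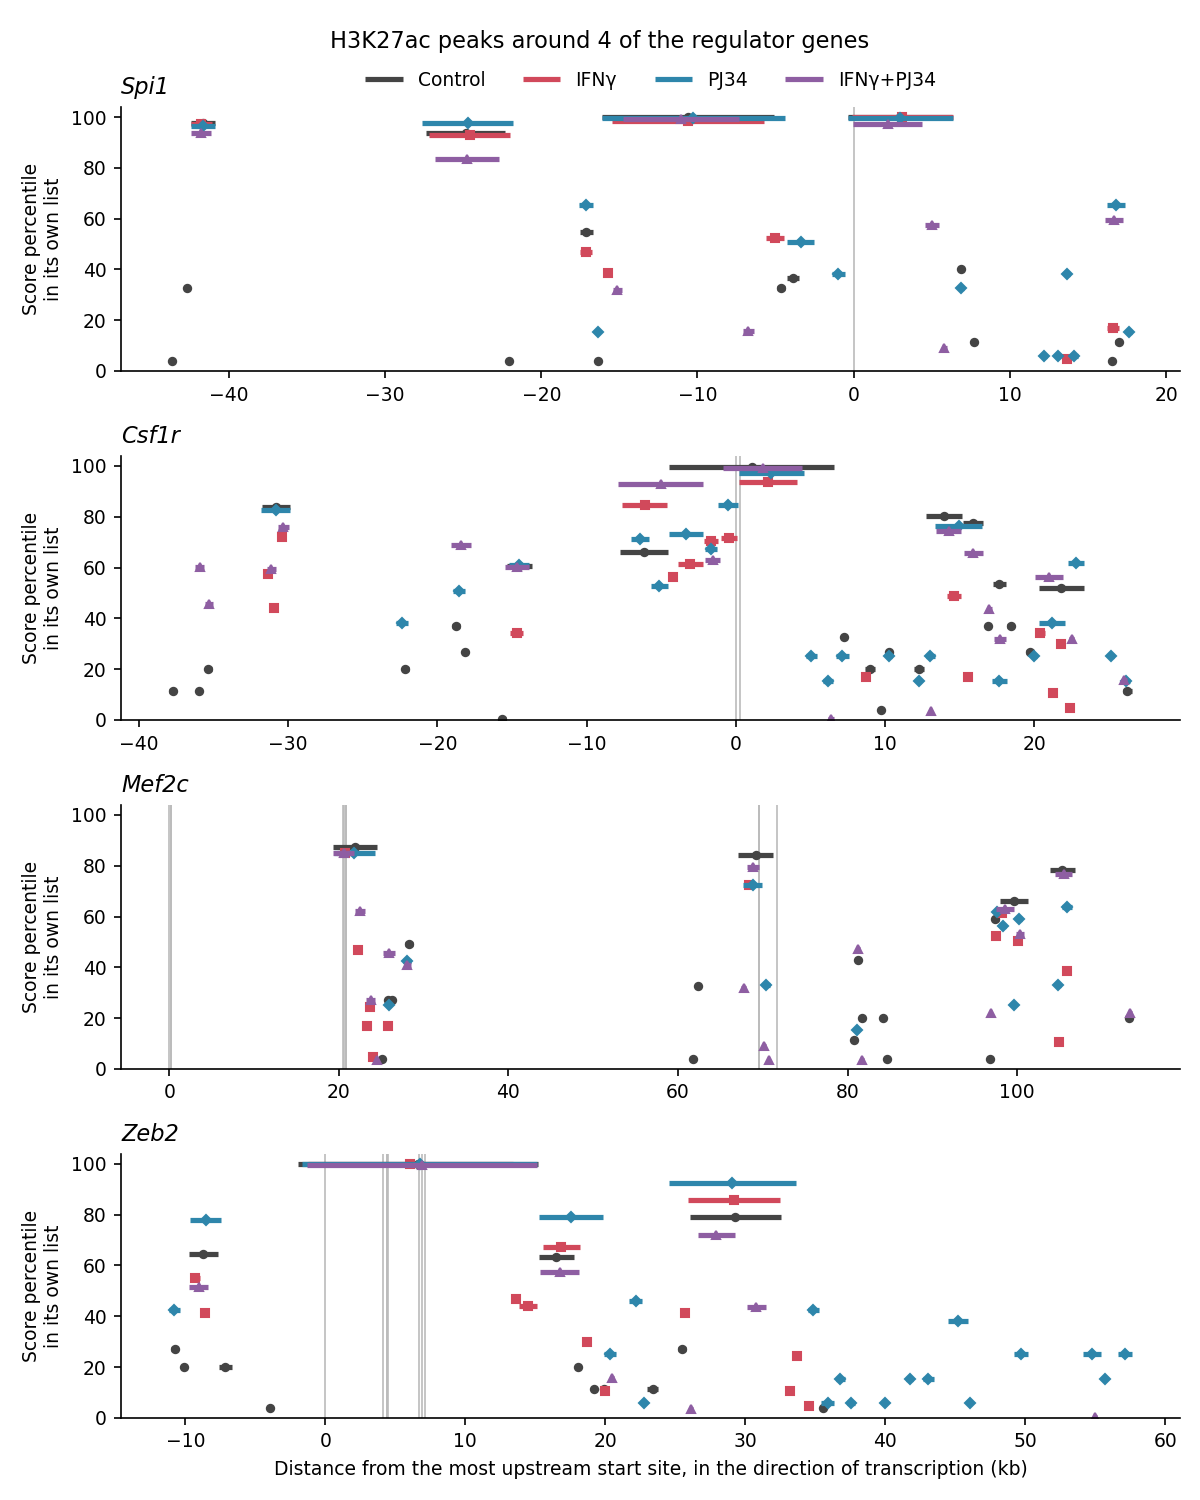
Peaks of the 4 lists around Spi1, Csf1r, Mef2c and Zeb2, by distance from the most upstream start site in the direction of transcription (kb) and by score percentile within the list; each bar spans 1 peak, the marker is its middle, and grey lines are start sites. At Csf1r and Mef2c the strongest IFNγ peak of each shared region ranks below that of Control, and at Zeb2 a row of weak PJ34 peaks extends into the gene.

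With IFNγ, the question was which marks at these genes differed from untreated cells after 1 h. Control peaks absent from IFNγ outnumbered IFNγ peaks absent from Control: 58 of 132 Control peaks (43.9%, 35.3 to 52.8) had no overlapping IFNγ peak, against 31.7% of all Control peaks, whereas 14 of 107 IFNγ peaks (13.1%, 7.34 to 21.0) had no Control peak, against 16.8%. Most of the difference lay in weak peaks. In the lower-scoring 50% of the Control list 54 of 81 member peaks (66.7%, 55.3 to 76.8) were absent from IFNγ, against 56.9% of all such peaks, and in the higher-scoring 50% 4 of 51 (7.84%, 2.18 to 18.9), against 6.58%. When a peak within 1 kb counted as present, the share of Control peaks absent was 27.3%, against 20.9% of all peaks. Of 56 regions in both lists, 18 had a higher percentile in IFNγ, against 39.4% over all regions, and the median difference was -3.10 points (-7.31 to -0.178), against -2.31 over all regions. Covered length was lower in IFNγ than in Control for 8 of 9 genes, against 78.3% of genes, and the ratio ran from 0.359 at Mef2c and 0.495 at Csf1r to 1.03 at Mitf, with a median of 0.839 over all genes.

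Of PJ34 alone, the question was whether it altered the marks without the cytokine. Absent from Control were 43 of 144 PJ34 peaks (29.9%, 22.5 to 38.0), against 19.5% of all PJ34 peaks, and absent from PJ34 were 36 of 132 Control peaks (27.3%, 19.9 to 35.7), against 25.1%. All 43 were in the lower-scoring 50% of the PJ34 list, where the share was 51.8% of 83 member peaks against 37.4% of all peaks, and none of the 61 member peaks of the higher-scoring 50% was absent from Control (0%, which allows up to 5.87%; 1.80% over all peaks). Within 10 kb of a start site, 7 of 44 PJ34 peaks were absent from Control (15.9%, 6.64 to 30.1). That interval holds both the 29.9% at 50 kb and the 19.5% of all PJ34 peaks at any distance, so no change of direction is shown. Zeb2 gave 14 of the 43 and Runx1 10. In the 71 regions of both lists the median percentile difference was -0.490 points (-3.21 to 2.81), with 32 higher in PJ34, against 51.7% over all regions. Covered length was lower than in Control for 4 of 9 genes, against 66.1% of all genes, and was highest relative to Control at Zeb2, at 1.37.

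IFNγ+PJ34 was set beside IFNγ to ask what the inhibitor altered in stimulated cells. This comparison shares its IFNγ list with the one against Control, so that a low IFNγ value enters both. Of 115 IFNγ+PJ34 peaks, 35 (30.4%, 22.2 to 39.7) had no IFNγ peak, against 27.2% of all, and of 107 IFNγ peaks, 22 (20.6%, 13.4 to 29.5) had no IFNγ+PJ34 peak, against 24.1%. The genes differed in direction. All 5 Csf1r regions in both lists and all 5 of Mef2c had a higher percentile in IFNγ+PJ34, with median differences of 22.2 and 6.80 points, and all 4 of Zeb2 a lower one (-6.69). Over the 52 shared member regions 28 were higher, against 51.1% over all regions, and the median difference was 0.191 points (-3.38 to 5.17). Covered length in IFNγ+PJ34 was 2.09 times that in IFNγ at Mef2c and 1.51 times at Csf1r, and it was lower than in IFNγ for 5 of 9 genes, against 52.6% of genes.

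Against PJ34 alone, IFNγ+PJ34 gives the difference with the cytokine in inhibited cells. It shares its PJ34 list with the comparison of PJ34 and Control, so that a high PJ34 value, such as those of Zeb2, enters both. Of 115 IFNγ+PJ34 peaks, 20 (17.4%, 11.0 to 25.6) had no PJ34 peak, against 25.7% of all, and of 144 PJ34 peaks, 56 (38.9%, 30.9 to 47.4) had no IFNγ+PJ34 peak, against 31.6%. Of the 56, 15 lay at Zeb2 and 10 each at Spi1 and Runx1. All 5 shared regions of Zeb2 and all 5 of Spi1 had a lower percentile in IFNγ+PJ34, with medians of -21.7 and -2.96 points, while 6 of 7 at Mef2c had a higher one (6.97). Over 60 shared regions the median difference was -0.422 points (-2.96 to 0.783), with 28 higher, against 41.2% over all regions and a median of -2.61. Covered length was lower than in PJ34 for 6 of 9 genes, against 66% of genes, with the lowest ratio, 0.563, at Zeb2.

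**Figure D4:**
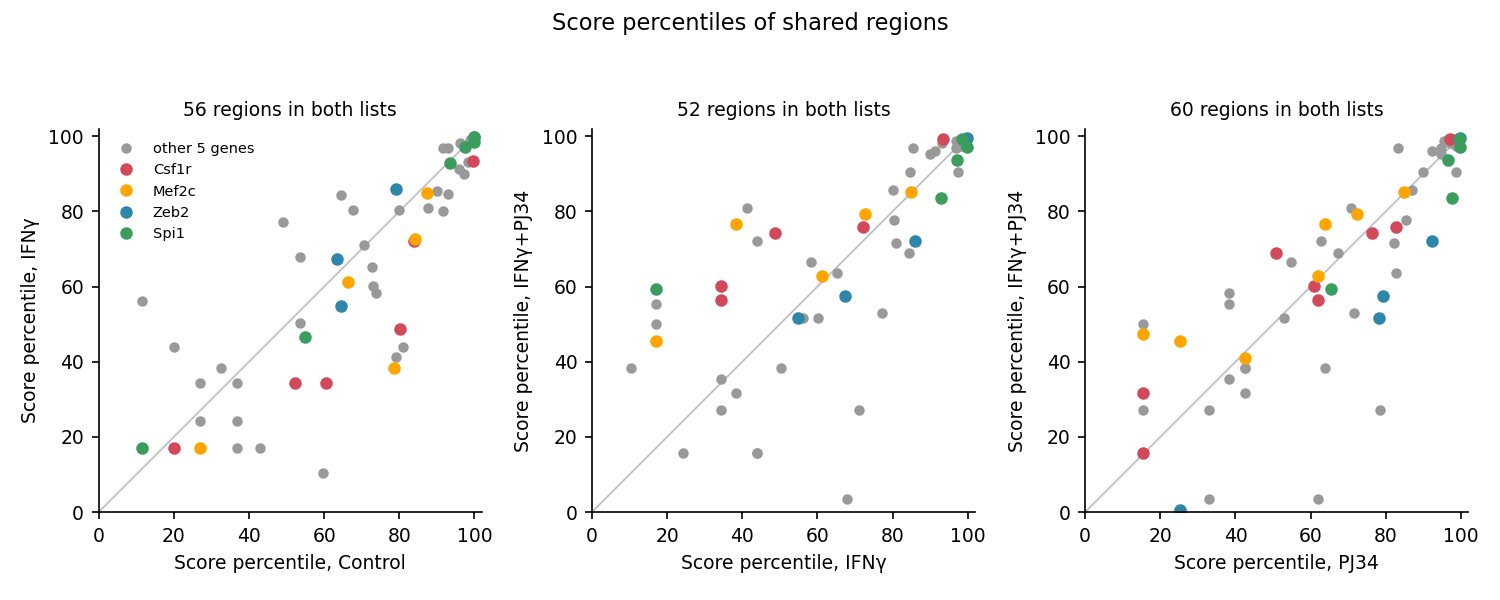
Score percentile of member regions present in both of a pair of lists (left, IFNγ against Control, 56 regions; middle, IFNγ+PJ34 against IFNγ, 52; right, IFNγ+PJ34 against PJ34, 60), 1 point per region, with the line of equal percentile. Csf1r (red) and Mef2c (orange) lie below the line on the left and above it in the middle, and Zeb2 (blue) lies below it on the right.

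The relatives and partners of these genes were for the most part marked as well. Of 27 such genes, 23 (85.2%) had a promoter peak in all 4 lists, against 47.8% of all genes. The exceptions were Spib, a B cell relative of Spi1, and Il34, the second CSF1R ligand, with no promoter peak in any list, Spic, an ETS factor of red pulp macrophages, with one in 3 lists, and Cebpe, a granulocyte factor, with one in 1 list. Covered length in IFNγ was below that of Control for 16 of 27 (59.3%), a smaller share than the 78.3% of all genes. The 3 RUNX relatives, Runx2, Runx3 and the partner Cbfb, had less covered length in IFNγ than in Control, as most genes did, and more in IFNγ+PJ34 than in IFNγ, where 52.6% of all genes had less. All 4 CSF ligands and receptors (Csf1, Il34, Csf2ra and Csf2rb) had more in IFNγ than in Control, unlike Csf1r and unlike the 78.3% of genes with less. Among all genes, those with covered lengths most like Spi1 over the 4 lists, by Euclidean distance on log2(kb + 1), were Nrp2 (0.13), Egfl8 (0.18) and Ppt2 (0.18), of which the latter pair had the same values, and those most like Csf1r were Lmna (0.24), Sema4a (0.25) and Cltc (0.26).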

How the data were processed

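H3K27ac ChIP and input DNA from BMDMs under 4 conditions (16 samples, 2 replicates each) were taken in groups from the sample titles. The authors aligned reads to mm10 with Bowtie, called relaxed peaks in each replicate against input with MACS, and kept the peaks found in both, which gave 1 deposited list per condition. Each deposited peak carries the authors' score, its fold enrichment (a ratio over local background), and its p-value and q-value on the −log10 scale. No read counts were used, so depth is unknown. Peaks of lists called separately depend on how much each list called.

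Start sites were those of protein-coding genes in the GENCODE M21 basic annotation, and sequences came from the RefSeq mm10 assembly. A peak was absent from a list when no peak there overlapped it by 1 bp. A region took the values of its peak with the highest −log10 p in each list, and the score percentile is the mid-rank within the list. Intervals are exact 95% binomial (shares), order-statistic (medians) or Poisson (motif densities) intervals and cover counting error only. Named were all 9 genes, their strongest promoter and distal regions, the strongest region missing from a list, the nearest genes to Spi1 and Csf1r, and the related and marker lists. One motif and one related gene of these lists are not reported here. Further regions, such as Cebpa 37.1 kb downstream and Runx1 24.8 kb downstream, and the printed stretches were chosen after their values were seen. The members and lists were chosen with earlier results of these data known. Alternatives varied the distance, the ranking, the overlap, the start sites and the part of each list used. Scripts were tested on simulated data and ran in Python 3.11.15 with numpy 2.4.6, pandas 2.3.3 and scipy 1.17.1.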

Additional observations from a re-analysis of the deposited data

Results flagged for a closer look

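A pair of patterns of presence ran in opposite directions with IFNγ in cells without and with PJ34. The log2 ratios of covered length at a pair of genes differed in sign between the same comparisons. In each case the difference was not tested, since each condition is 1 list. There were 8 member regions in Control and IFNγ+PJ34 but in neither other list (5.19%, against 3.64% of all regions), of which 3 lay at Csf1r, 2 each at Cebpa and Mef2c and 1 at Mitf. Conversely, 5 were in IFNγ and PJ34 but in neither other list (3.25%, against 2.7%), 1 each at Spi1, Runx1, Maf, Mitf and Zeb2. At Mef2c the log2 ratio of covered length was -1.48 for IFNγ over Control and 0.30 for IFNγ+PJ34 over PJ34. At Runx1 these log2 ratios were -0.31 and 0.07. The latter is little change between lists that differ in extent, so a reversal at Runx1 is not shown. The share of all genes whose log2 ratios differ in sign was not computed, so it is unknown whether such genes are common.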

How the results depend on the processing

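Of 168 recomputed values under 13 alternatives, 127 stayed within 1.5 times the count or within the interval given above, 41 moved beyond it and 0 changed sign beyond an interval that excluded 0. Among the medians, only that of IFNγ minus Control had such an interval. Other medians changed sign inside their intervals. PJ34 minus Control, -0.490 points, became 1.12 at 100 kb, 0.325 ranked by width and 2.17 with comprehensive start sites. IFNγ+PJ34 minus IFNγ, 0.191 points, became -0.0521 at 10 kb and -0.375 at 100 kb. It was -0.0521 above the middle of the lists and -0.122 with comprehensive start sites. The start sites of the comprehensive annotation and the higher-scoring part of the queried list alone were alternatives chosen after seeing the data. Counts of member peaks in Control, IFNγ, PJ34 and IFNγ+PJ34 were 46, 41, 44 and 46 when the distance was 10 kb. They were 51, 51, 61 and 55 when only peaks above the middle of their list were used, and the IFNγ and IFNγ+PJ34 counts were 174 and 179 at 100 kb. Above the middle of the lists, 52.6% of member regions were in all 4 lists (48.8% of all regions).

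The following shares of member peaks absent from another list are each given with the share over all peaks under the same setting after the stroke. Above the middle of both lists they were 5.88/13.9% (IFNγ from Control), 13.1/13.4% (PJ34 from Control), 25.5/23.6% (Control from IFNγ), 9.80/16.5% (Control from PJ34), 11.8/19.01% (IFNγ from IFNγ+PJ34), 10.9/22.7% (IFNγ+PJ34 from PJ34) and 19.7/25.6% (PJ34 from IFNγ+PJ34). With only the queried list so restricted they were 1.96/4.39%, 0/1.80%, 7.84/6.58%, 3.92/4.22%, 5.88/5.99%, 3.64/11.0% and 8.20/9.32% in that order, and 5.45/8.23% for IFNγ+PJ34 from IFNγ. Within 10 kb they were 2.44/16.8% (IFNγ from Control) and 15.9/19.5% (PJ34 from Control), where the shares over all peaks were not limited by distance. Where 50% of a peak had to be overlapped, they were 56.1/45.3% (Control from IFNγ), 40.9/36.5% (Control from PJ34), 42.6/36.5% (IFNγ+PJ34 from IFNγ), 30.8/33.2% (IFNγ from IFNγ+PJ34) and 51.4/42.6% (PJ34 from IFNγ+PJ34). Counting a peak within 1 kb as present gave 5.61/10.7% (IFNγ from Control), 18.8/10.5% (PJ34 from Control), 27.3/20.9% (Control from IFNγ), 15.2/15.7% (Control from PJ34), 9.35/15.6% (IFNγ from IFNγ+PJ34) and 22.9/21.5% (PJ34 from IFNγ+PJ34). The comprehensive start sites gave 38.9/19.5% for PJ34 from Control and 48.4/31.6% for PJ34 from IFNγ+PJ34. The member share of PJ34 peaks absent from Control was thus above that of all peaks at 50 kb. It was not above it within 10 kb (interval 6.64 to 30.1) or above the middle of the lists (5.84 to 24.2). Above the middle of the lists, 5 of 51 Control peaks were absent from PJ34 (9.80%, 3.26 to 21.4). There, 12 of 61 PJ34 peaks were absent from IFNγ+PJ34 (19.7%, 10.6 to 31.8). All 4 of these intervals hold the share over all peaks, so no difference from all peaks is shown in them. Looser or stricter overlap and fewer weak peaks lower or raise these shares by construction; the cause was otherwise not tested.

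No paired analysis was possible because the 2 replicates of a condition were combined into 1 list, and leaving out a replicate was not possible either. Differences between lists therefore have no replicate error, and unequal depth or enrichment of the libraries cannot be told apart from treatment.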
